A study of Mus musculus with 22 samples.

Results

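This account follows 35 genes of the unfolded protein response of the endoplasmic reticulum (ER) and of the integrated stress response in the transcriptomes of mouse collecting duct cells. The genes were taken by symbol from a list, and all 35 were found among the 54514 gene entries of the deposited expression table. By role they comprise 15 ER chaperones and folding enzymes, 5 stress sensors and transcription factors, 6 targets of the Atf4 pathway, and 9 genes of ER-associated degradation and of translocation into the ER. The data are 22 RNA-seq libraries from mpkCCD cells, an established line from the mouse cortical collecting duct, polarised on permeable supports in a medium that held dexamethasone, selenite and transferrin for every group. Wild-type (WT) cells were unsorted and received either no dDAVP (desmopressin, which activates the V2 receptor of vasopressin) or given dDAVP, with 3 libraries each. One label gives the cells without dDAVP as having had no treatment and the protocol speaks of vehicle, so they are called WT control here. The reporter cells are 4 clones named C1, C11, C43 and C50, all given dDAVP and divided into a GFP-negative (GFP-) and a GFP-positive (GFP+) fraction, with 2 libraries per clone and fraction. Each clone is 1 line, the labels name neither the promoter that drives GFP nor the dDAVP dose and duration of a library, and the study's title ties the reporter to aquaporin-2 (Aqp2). No group of clone cells without dDAVP was analysed here, so the fractions can be compared with each other only under dDAVP.

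The unfolded protein response is set off when unfolded proteins collect in the ER. Its sensors are the kinase and nuclease Ern1 (IRE1), which splices Xbp1 mRNA, the kinase Eif2ak3 (PERK), which phosphorylates the initiation factor eIF2α, and the membrane-bound factor Atf6, which is cleaved to become active. Phosphorylation of eIF2α, also made by kinases that sense amino acid shortage or haem, lowers general translation while raising that of Atf4, whose targets serve amino acid supply, feedback and cell death. Activation of Xbp1, Atf4 and Atf6 is largely by splicing, translation or cleavage, which gene-level mRNA values do not show. In collecting duct principal cells, vasopressin raises Aqp2, a glycosylated membrane protein that is folded in the ER.

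Elements known from the promoters of such genes were looked for in RefSeq promoters (build GRCm38.p6, 250 bases before to 50 after each start site, 32851 promoters), in which 31 of the 35 genes had an entry. Manf, Hyou1, Atf6 and Derl1 had none. The ER stress response element (ERSE, CCAAT, 9 bases of any kind and CCACG, searched on both strands), known to be read by NF-Y with Atf6 or Xbp1, was present in 0.119% of all promoters and in 9 of the 31. Those were 7 chaperone genes (Hspa5, Hsp90b1 with 2 sites, Calr, Canx, Pdia6, Dnajc3 and Creld2) and the degradation genes Syvn1 and Derl3. The shorter ERSE-II (ATTGG, 1 base of any kind and CCACG) was present in 0.0365% of promoters and in Dnajb11 and Herpud1 among these genes. Sites of both kinds are shown because all of those found among the 31 lie in ER genes, many of which hold neither, and they are written in the direction of the element, with its fixed letters in capitals.
Hspa5 site at chr2:34772025-34772043, plus strand: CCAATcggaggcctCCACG
Hsp90b1 site at chr10:86705638-86705656, minus strand: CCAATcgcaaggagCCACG
Hsp90b1 site at chr10:86705533-86705551, plus strand: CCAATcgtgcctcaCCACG
Calr site at chr8:84847075-84847093, plus strand: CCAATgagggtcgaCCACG
Canx site at chr11:50325800-50325818, minus strand: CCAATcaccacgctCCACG
Pdia6 site at chr12:17266491-17266509, plus strand: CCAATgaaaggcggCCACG
Dnajb11 site at chr16:22857852-22857862, plus strand: ATTGGcCCACG
Dnajc3 site at chr14:118937827-118937845, plus strand: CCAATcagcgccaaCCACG
Creld2 site at chr15:88819520-88819538, minus strand: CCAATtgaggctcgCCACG
Herpud1 site at chr8:94386377-94386387, plus strand: ATTGGgCCACG
Syvn1 site at chr19:6046532-6046550, plus strand: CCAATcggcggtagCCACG
Derl3 site at chr10:75893242-75893260, minus strand: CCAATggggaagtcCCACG

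The composite C/EBP-ATF element (TGATGNAA, both strands), which Atf4 reads together with a C/EBP partner, was present in 3.97% of promoters and in 5 of the 31 genes. They were Trib3, Asns, Chac1 and Nupr1, which are 4 of the 6 Atf4 pathway targets, and Herpud1. The cyclic AMP response element (CRE, TGACGTCA, its own reverse complement) was present in 1.79% of promoters and in Ppp1r15a alone among these genes. The Xbp1-type core TGACGTGG was present in 0.676% of promoters and in none of the 31, and no site overlapped another. The sites of the Atf4 pathway targets, the group with the largest differences below, are shown with 11 bases on each side and the element in capitals. That of Trib3 begins 14 bases after the start site and the others lie before it.
Trib3 site at chr2:152344028-152344057, plus strand: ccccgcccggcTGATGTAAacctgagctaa
Asns site at chr6:7693214-7693243, minus strand: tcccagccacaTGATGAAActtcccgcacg
Chac1 site at chr2:119351038-119351067, minus strand: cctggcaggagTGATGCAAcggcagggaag
Nupr1 site at chr7:126625562-126625591, plus strand: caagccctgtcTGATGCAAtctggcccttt
Ppp1r15a site at chr7:45526262-45526291, minus strand: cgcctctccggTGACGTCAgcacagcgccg

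The 120 bases before the start site are printed for 3 genes that differ in which element they hold. As described below, Hspa5 and Herpud1 were higher and Asns lower in GFP+ cells. Hspa5 holds an ERSE, Herpud1 an ERSE-II and a C/EBP-ATF element, the latter on the other strand, and Asns a C/EBP-ATF element (capitals). A match of letters is a description of the sequence and not a binding site.
Hspa5 upstream bases at chr2:34771970-34772089, plus strand: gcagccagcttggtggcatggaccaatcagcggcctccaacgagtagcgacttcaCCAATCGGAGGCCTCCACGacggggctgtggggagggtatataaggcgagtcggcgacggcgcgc
Herpud1 upstream bases at chr8:94386309-94386428, plus strand: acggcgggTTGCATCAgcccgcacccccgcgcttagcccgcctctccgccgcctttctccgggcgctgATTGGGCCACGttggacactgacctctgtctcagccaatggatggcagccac
Asns upstream bases at chr6:7693210-7693329, minus strand: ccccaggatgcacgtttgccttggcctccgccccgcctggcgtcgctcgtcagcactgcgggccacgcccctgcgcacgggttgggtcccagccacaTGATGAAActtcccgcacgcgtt

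Aqp2, which marks the response to dDAVP, was 64.1, 74.9 and 68.4 TPM in WT control cells and 2820.2, 3025 and 2759 TPM with dDAVP, and the GFP transcript was at most 17.6 TPM in GFP- and at least 1065 TPM in GFP+ libraries. TPM, a length-scaled share of the transcripts in each library, keep no sequencing depth, so the spread between libraries is the only measure of precision. The labels do not say that replicates are separate cultures, and p-values then measure only the spread between these libraries. In bulk RNA, fewer cells expressing a gene and less RNA per cell cannot be told apart. Of 13 principal-cell markers 9 were tested, among them Avpr2 at 137.4 to 385 TPM and Gata3 at 97.2 to 335 TPM, whereas Scnn1b, Kcnj1 and Elf5 were at most 0.82 TPM in every library. Fibroblast and endothelial markers each summed to at most 2.10 TPM, immune markers to 12.1 to 31.6 TPM and podocyte markers to 15.3 to 58.2 TPM. Libraries split by the number of genes above 0 into 10 with 17177 to 20250 and 12 with 23135 to 31292, both kinds occurring in all 4 of WT control, WT dDAVP, GFP- and GFP+ cells. GFP- replicate 1 of C50 stood apart, with 7.81% of TPM in ribosomal-protein transcripts against 3.64% to 5.81% in the other 21 libraries, and results that rest on it are given with and without it.

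The 35 genes together made up 0.635% to 0.936% of TPM. Hspa5 (BiP), the main Hsp70 chaperone of the ER, was the most abundant, at 906 to 2501 TPM over the 22 libraries. Next came Ppp1r15a (GADD34), the subunit that directs dephosphorylation of eIF2α, with 517 to 1219.6 TPM, and Atf4 with 638 to 904 TPM. The ranges of Hspa5 and Atf4 did not overlap, and that of Ppp1r15a overlapped both. The sensors were far less abundant, with Ern1 at 1.08 to 5.10 TPM, Eif2ak3 at 4.55 to 20.2 TPM and Atf6 at 6.09 to 20.6 TPM. The genes also differed in how much they varied. Between the highest and the lowest library, Nupr1 spanned 19.7-fold and Trib3 15.1-fold, whereas Creld2 spanned 1.31-fold and Atf4 1.42-fold. In the map of all genes and libraries the rows of Trib3 and Nupr1 stand out from the rest.

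**Figure D1:**
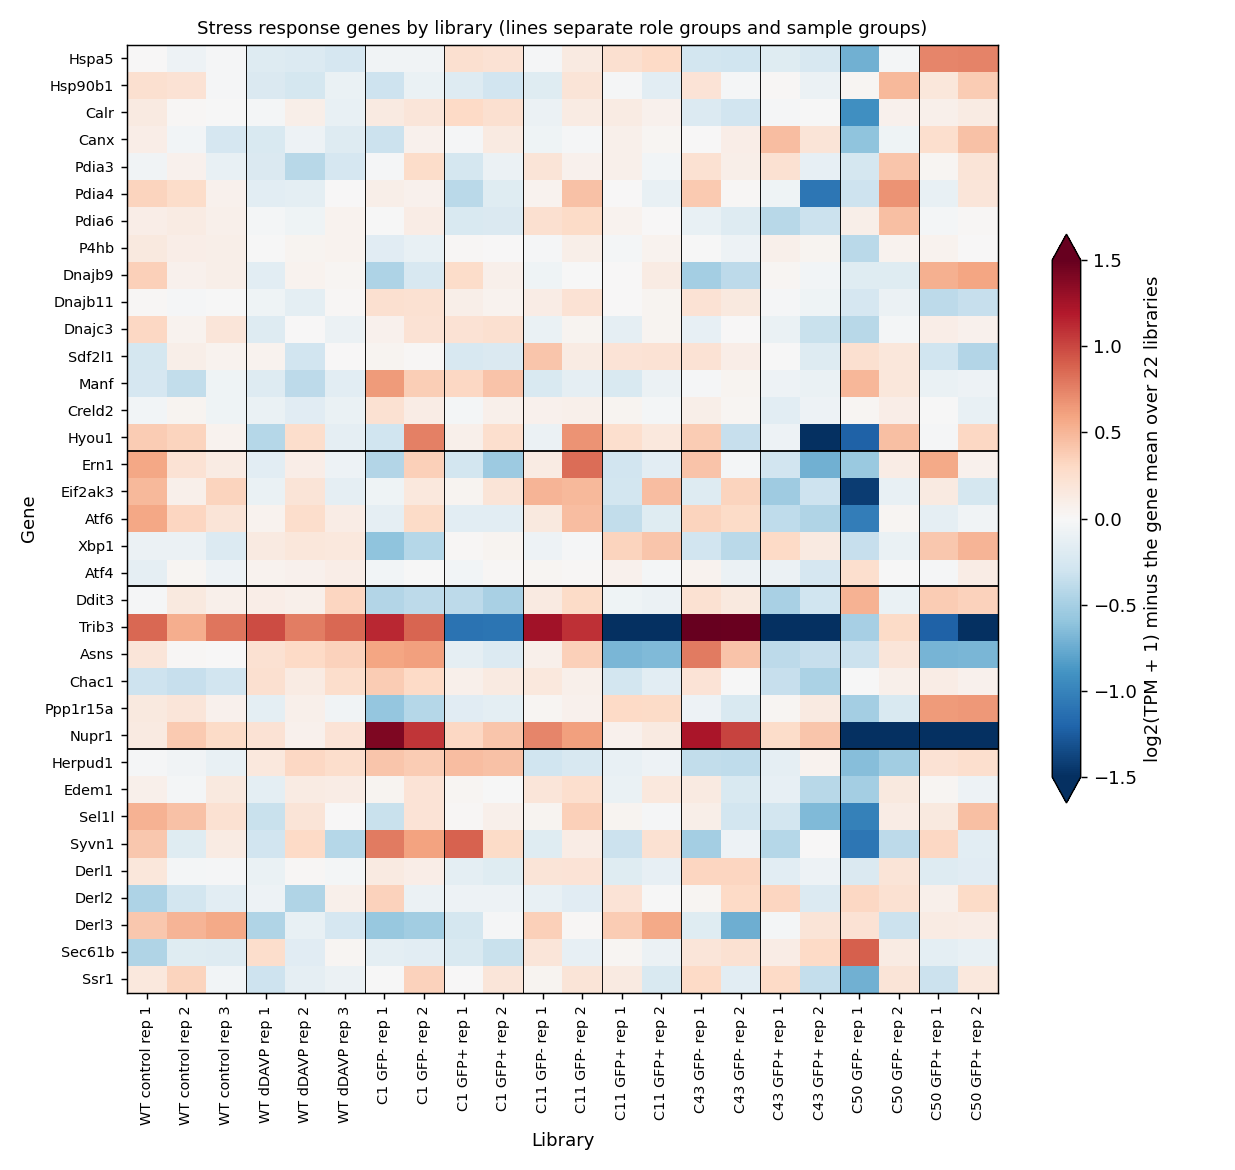
Level of each of the 35 genes (rows, grouped by role) in each of the 22 libraries (columns, grouped by sample group), as log2(TPM + 1) minus the gene's mean over all libraries, with colours saturating beyond 1.5 in either direction. Trib3 is low in all 8 GFP+ libraries, Nupr1 is low in the 4 libraries of C50, and GFP- replicate 1 of C50 is low in many chaperone, sensor and degradation genes.

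With dDAVP, WT cells had more transcript of Chac1, Herpud1 and Xbp1 and less of Derl3, and none of the 15 ER chaperones and folding enzymes was called. Of the 35 genes, 4 were called (limma on log2(TPM + 1), Benjamini-Hochberg adjusted p under 0.05, two-sided), or 11.4%, where 8.88% of all 13494 tested genes were called. Higher were 8.57% of the 35 against 2.37% of all genes, and lower 2.86% against 6.51%. Their median log2 change was -0.11, beside -0.16 over all genes. The share of all calls that were higher was 26.7% in the deposited values, 59.5% with median-ratio scaling, which moved the median of all genes to 0.0003, and 54.1% with quantile normalization. The changes below are given as deposited unless a scaling is named.

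Chac1, a glutathione-degrading enzyme induced through Atf4, was 184, 179 and 187 TPM without and 269, 249 and 273 TPM with dDAVP. All 3 treated libraries lay above the 3 control ones (log2 change 0.52, standard error 0.066, adjusted p = 0.00653). Xbp1, the factor activated by Ern1, was 195, 195 and 179.8 TPM without and 228, 233 and 230.3 TPM with dDAVP (log2 change 0.28, standard error 0.065, adjusted p = 0.0429). Herpud1, an ER membrane protein of the degradation machinery, was 289.8, 282 and 271 TPM without and 327, 365 and 353 TPM with dDAVP (log2 change 0.31, standard error 0.069, adjusted p = 0.0389). Neither gene's groups overlapped. Derl3, a subunit of the channel through which misfolded proteins leave the ER, went the other way, from 9.71, 10.5 and 11.1 TPM to 4.92, 6.48 and 5.79 TPM (log2 change -0.77, standard error 0.13, adjusted p = 0.0189), also without overlap. Median-ratio scaling gave 0.69 for Chac1, 0.45 for Xbp1, 0.48 for Herpud1 and -0.62 for Derl3, each still called. With quantile normalization Chac1 (0.50) and Derl3 (-0.56) stayed called, while Xbp1 (0.27, adjusted p = 0.0605) and Herpud1 (0.24, adjusted p = 0.133) did not.

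The other 31 genes were not called. Atf4 itself was 693, 775 and 719 TPM without and 784, 793 and 813 TPM with dDAVP, without overlap but not called (log2 change 0.13, standard error 0.065, adjusted p = 0.218). Ddit3 (CHOP), the death-associated factor downstream of Atf4, was 261, 291 and 277 TPM and 282, 278 and 329 TPM, and these groups overlapped (log2 change 0.10, adjusted p = 0.468). These are sums of 2 lines of the table, and the overlap came from the rarer line, which was above 0 in 1 library of each group. The abundant line alone was 261, 253 and 277 TPM against 282, 278 and 284 TPM, without overlap, and Ddit3 was not called with it either. Trib3, a pseudokinase that feeds back on Atf4, was 121, 96.4 and 116 TPM and 130.4, 113 and 121 TPM, again with overlap. Asns, asparagine synthetase, was 178, 158 and 156 TPM and 184, 193 and 199 TPM, which did not overlap and was not called as deposited (log2 change 0.22, adjusted p = 0.102). After median-ratio scaling Asns was the fifth called gene (0.40, adjusted p = 0.0284). Among the chaperones, 0 of 15 were called by limma and 5 had an unadjusted p under 0.05, beside 4179 of all 13494 tested genes. With the number of genes detected as a covariate, which raised the share of all genes called to 20%, Hsp90b1 (-0.37, adjusted p = 0.0275), Pdia4 (-0.36, adjusted p = 0.0284) and Hyou1 (-0.44, adjusted p = 0.0496) were called lower. Hspa5 was 1495, 1417 and 1469 TPM without and 1308, 1294 and 1253 TPM with dDAVP, lower in every treated library (log2 change -0.18, standard error 0.057, adjusted p = 0.0822), and its change after median-ratio scaling was -0.01.

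The dDAVP calls rest on few libraries. Chac1 stayed called with any 1 of the 6 WT libraries left out, whereas Xbp1 and Herpud1 were not called without any 1 of them, and Derl3 stayed called only without dDAVP replicate 2. Within the 4 WT libraries with more genes above 0, limma called 0 of the 35 genes (9 at an unadjusted p under 0.05) and 0.728% of all genes, with log2 differences of 0.52 for Chac1, 0.33 for Herpud1, 0.25 for Xbp1 and -0.64 for Derl3. In the remaining 2 WT libraries, 1 per group, no test was possible. Along with these changes, 5 of 8 cycling-cell markers were lower with dDAVP (sum of TPM 1828 to 1837 without and 1249 to 1436 with dDAVP), as were 7 of 12 immediate early genes. Their part in the result was not tested.

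Between GFP fractions the Atf4 pathway targets showed the largest differences. Trib3, Nupr1, Asns and Chac1 were lower in GFP+ cells and Ppp1r15a was higher, while Atf4 and Ddit3 were not called. The ER genes divided, with Xbp1, Hspa5, Canx, Dnajb9, Herpud1 and Derl3 higher and Pdia6, Dnajb11, Sdf2l1, Creld2 and Derl1 lower. In all, 16 of the 35 genes were called, 7 higher and 9 lower, in a comparison of 8 GFP+ with 8 GFP- libraries with the clone as a covariate. That is 45.7% of the 35, where 35.3% of all 13113 tested genes were called. Higher were 20% of the 35 against 12.1% of all genes, and lower 25.7% against 23.2%. The median log2 change was -0.09 in the 35 genes and -0.06 in all genes. The share of all calls that were higher was 34.2% in the deposited values, 51% with median-ratio and 50.5% with quantile normalization, and of the 35 genes these scalings called 9 higher with 5 lower and 6 higher with 6 lower.

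**Figure D2:**
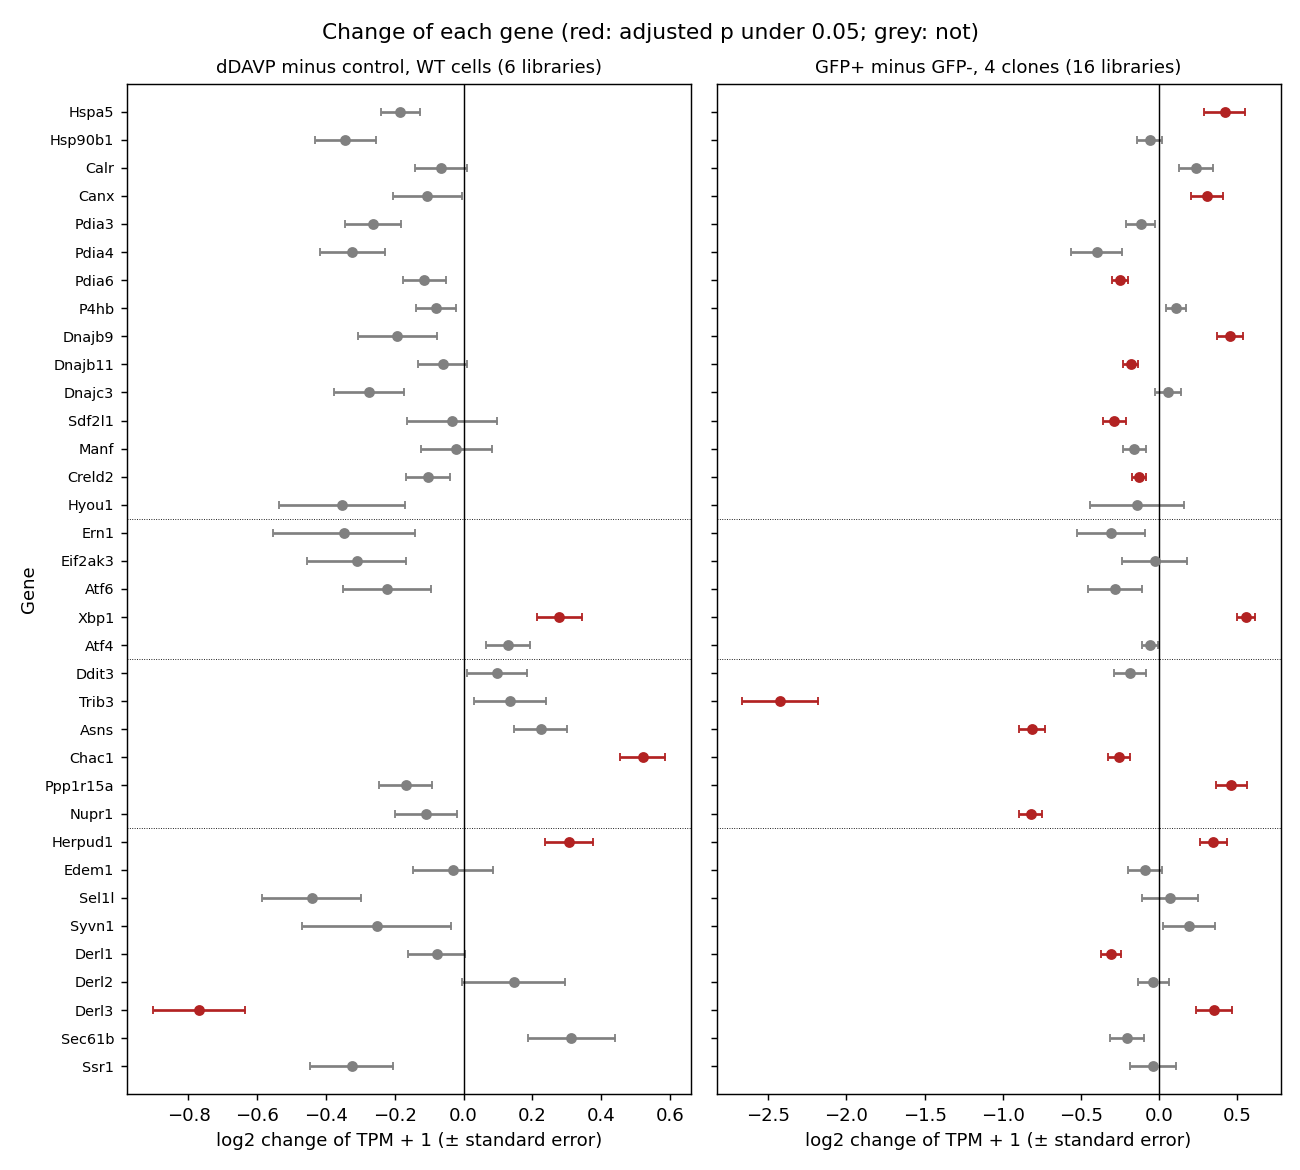
Change of each of the 35 genes with its standard error, on the log2(TPM + 1) scale, for dDAVP against no dDAVP in WT cells (left, 6 libraries) and for GFP+ against GFP- cells with the clone as a covariate (right, 16 libraries). Red points passed an adjusted p of 0.05, and dotted lines separate the role groups. Trib3 lies at -2.42 on the right and at 0.13 on the left.

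Trib3 showed the largest difference. It was 145 and 122 TPM in GFP- and 30.0 and 30.4 TPM in GFP+ cells of C1, and 159 and 142 TPM against 20.1 and 19.1 TPM in C11. In C43 the values were 212 and 186 TPM against 21.7 and 14.1 TPM, and in C50 46.5 and 80.7 TPM against 27.9 and 21.5 TPM. The 8 GFP+ libraries lay below all 8 GFP- libraries, with a 5.37-fold lower level on the log2(TPM + 1) scale (log2 change -2.42, standard error 0.24, adjusted p = 3.58e-06). The WT libraries, control and treated, lay at 96.4 to 130.4 TPM, above every GFP+ library. Between the means, GFP- cells had 11.1-fold more Trib3 in C43, 7.68-fold more in C11, 4.42-fold more in C1 and 2.58-fold more in C50. C50 had the lowest GFP- values and GFP+ values within the range of the other clones.

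Nupr1, a small stress-induced chromatin protein, was 277 and 222 TPM in GFP- and 130.4 and 140.5 TPM in GFP+ cells of C1. It was 174 and 161 TPM against 109.5 and 115 TPM in C11, 246 and 212 TPM against 127 and 140.2 TPM in C43 and 31.4 and 31.2 TPM against 14.6 and 14.1 TPM in C50. Both fractions of C50 lay below every other library of the series, so the fractions overlapped over the 4 clones but in no single clone (log2 change -0.82, standard error 0.075, adjusted p = 1.72e-06). Asns was 125, 205 and 268 TPM (lowest, median and highest of 8) in GFP- and 96.0, 109 and 142 TPM in GFP+ libraries (log2 change -0.81, standard error 0.082, adjusted p = 4.11e-06). The overlap of Asns came from C1 GFP+ and C50 GFP- libraries, and within each clone the fractions were apart. Trib3, Nupr1, Asns and Xbp1 were the genes called in all 4 clones. Chac1 was lower by less, with 227, 248 and 297 TPM in GFP- and 164, 221 and 251 TPM in GFP+ libraries (log2 change -0.26, standard error 0.071, adjusted p = 0.011), and was not called after median-ratio scaling (-0.18, adjusted p = 0.0519).

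**Figure D3:**
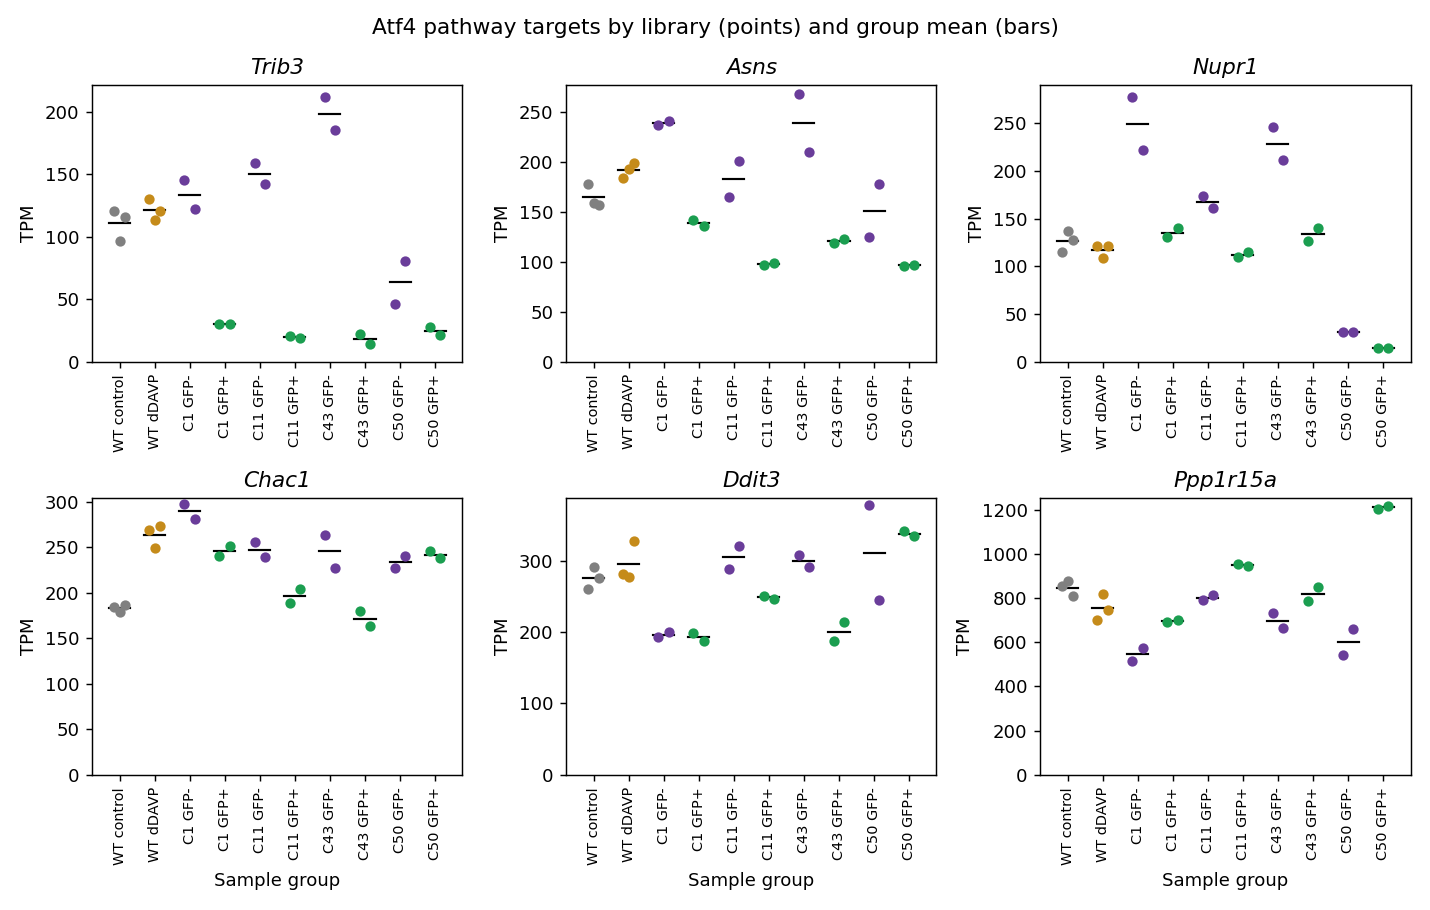
TPM of the 6 Atf4 pathway targets in the 22 libraries (points) with group means (bars), for WT control (grey), WT dDAVP (ochre), GFP- (purple) and GFP+ (green) cells. Trib3, Asns and Nupr1 are lower in the GFP+ fraction of every clone, Ppp1r15a is higher in the GFP+ fraction of every clone, and Nupr1 is low in both fractions of C50.

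Ppp1r15a went against the other targets. It was 517, 662 and 814 TPM in GFP- and 692, 899.7 and 1219.6 TPM in GFP+ libraries (lowest, median and highest of 8 each), with overlapping ranges over the clones (log2 change 0.46, standard error 0.098, adjusted p = 0.00197). The GFP+ mean was higher in each of the 4 clones, and most so in C50, where 542 and 659.6 TPM stood against 1207 and 1219.6 TPM. Ddit3 was 194, 290.3 and 379 TPM in GFP- and 187, 231 and 342 TPM in GFP+ libraries, which overlapped and was not called (log2 change -0.19, standard error 0.10, adjusted p = 0.185). The rarer line of Ddit3 was above 0 in 1 of these 16 libraries, GFP- replicate 2 of C11. Atf4 transcript was 711, 762 and 904 TPM in GFP- and 638, 746 and 817 TPM in GFP+ libraries. These ranges overlapped and the 95% interval of the log2 change was -0.17 to 0.05 (change -0.06, adjusted p = 0.431), with a sign that turned to 0.02 after median-ratio scaling. Atf4 protein, which is set largely by translation, was not measured.

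Against 35.3% of all genes, 20% of the 5 sensors and factors were called, namely Xbp1 alone. It was 136 and 153 TPM in GFP- and 209.6 and 213 TPM in GFP+ cells of C1, 196 and 205 TPM against 262 and 276 TPM in C11, 169 and 156 TPM against 256 and 228 TPM in C43 and 163 and 193 TPM against 275 and 296 TPM in C50. All 8 GFP+ libraries lay above all 8 GFP- libraries (log2 change 0.55, standard error 0.058, adjusted p = 5.27e-06). The table does not separate spliced from unspliced Xbp1. For the sensors the log2 changes were -0.31 for Ern1 (95% interval -0.77 to 0.15), -0.03 for Eif2ak3 (-0.48 to 0.42) and -0.28 for Atf6 (-0.65 to 0.08), none called. Without GFP- replicate 1 of C50, in which Eif2ak3 and Atf6 had their lowest values of the series, Atf6 was called lower (-0.44, adjusted p = 0.00236).

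Of the 15 chaperones and folding enzymes, 7 were called, 3 higher and 4 lower. That is 46.7% called, 20% higher and 26.7% lower, against 35.3%, 12.1% and 23.2% of all genes. Hspa5 was 1439 and 1436 TPM in GFP- and 1759 and 1738 TPM in GFP+ cells of C1, and 1479.6 and 1638 TPM against 1760.4 and 1844 TPM in C11. In C43 it was 1235 and 1212 TPM against 1313 and 1267 TPM, and in C50 906 and 1467 TPM against 2475 and 2501 TPM. GFP+ values were the higher ones in each clone (log2 change 0.42, standard error 0.13, adjusted p = 0.0203), by changes of 0.28, 0.21, 0.08 and 1.11 in C1, C11, C43 and C50, of which that of C50 alone was called. Without GFP- replicate 1 of C50 the change in C50 was 0.76 and that over the clones 0.29 (adjusted p = 0.00334). After quantile normalization Hspa5 was not called (0.34, adjusted p = 0.0843).

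Dnajb9 (ERdj4), a co-chaperone of Hspa5 known as a target of Xbp1, was 16.9, 21.1 and 24.5 TPM in GFP- and 23.8, 26.4 and 37.5 TPM in GFP+ libraries (log2 change 0.45, standard error 0.086, adjusted p = 0.000876). The ranges met only at their edges, and Dnajb9 was called in 3 of the 4 clones. Canx, the membrane lectin that holds new glycoproteins, was 131, 195 and 215 TPM against 198, 225 and 277 TPM (log2 change 0.31, standard error 0.10, adjusted p = 0.0263). The lower calls were smaller. Pdia6, a disulfide isomerase, was 225, 276 and 354 TPM in GFP- and 193, 238 and 267 TPM in GFP+ libraries (log2 change -0.25, standard error 0.053, adjusted p = 0.00202), and Sdf2l1, a partner of the Hsp70 cycle in the ER, was 97.7, 107 and 129.6 TPM against 71.3, 83.8 and 113 TPM (log2 change -0.29, standard error 0.073, adjusted p = 0.00654). Dnajb11 (ERdj3), another co-chaperone, changed by -0.18 (adjusted p = 0.00646), and Creld2, a disulfide isomerase of the stress response, by -0.13 (adjusted p = 0.0402). Sdf2l1, Dnajb11 and Creld2 were not called after either scaling. The other 8 were Calr, a soluble lectin (0.24), the Hsp90 protein Hsp90b1 (-0.06), the disulfide isomerases Pdia3 (-0.12), Pdia4 (-0.40) and P4hb (0.11), the co-chaperone Dnajc3 (0.05), the secreted factor Manf (-0.16) and the large Hsp70 protein Hyou1 (-0.14, all log2 changes), none called as deposited. Median-ratio scaling added Calr (0.32, adjusted p = 0.00416) and P4hb (0.19, adjusted p = 0.0079) as higher in limma. Quantile normalization called neither, so the balance of directions among the chaperones depended on the scaling.

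**Figure D4:**
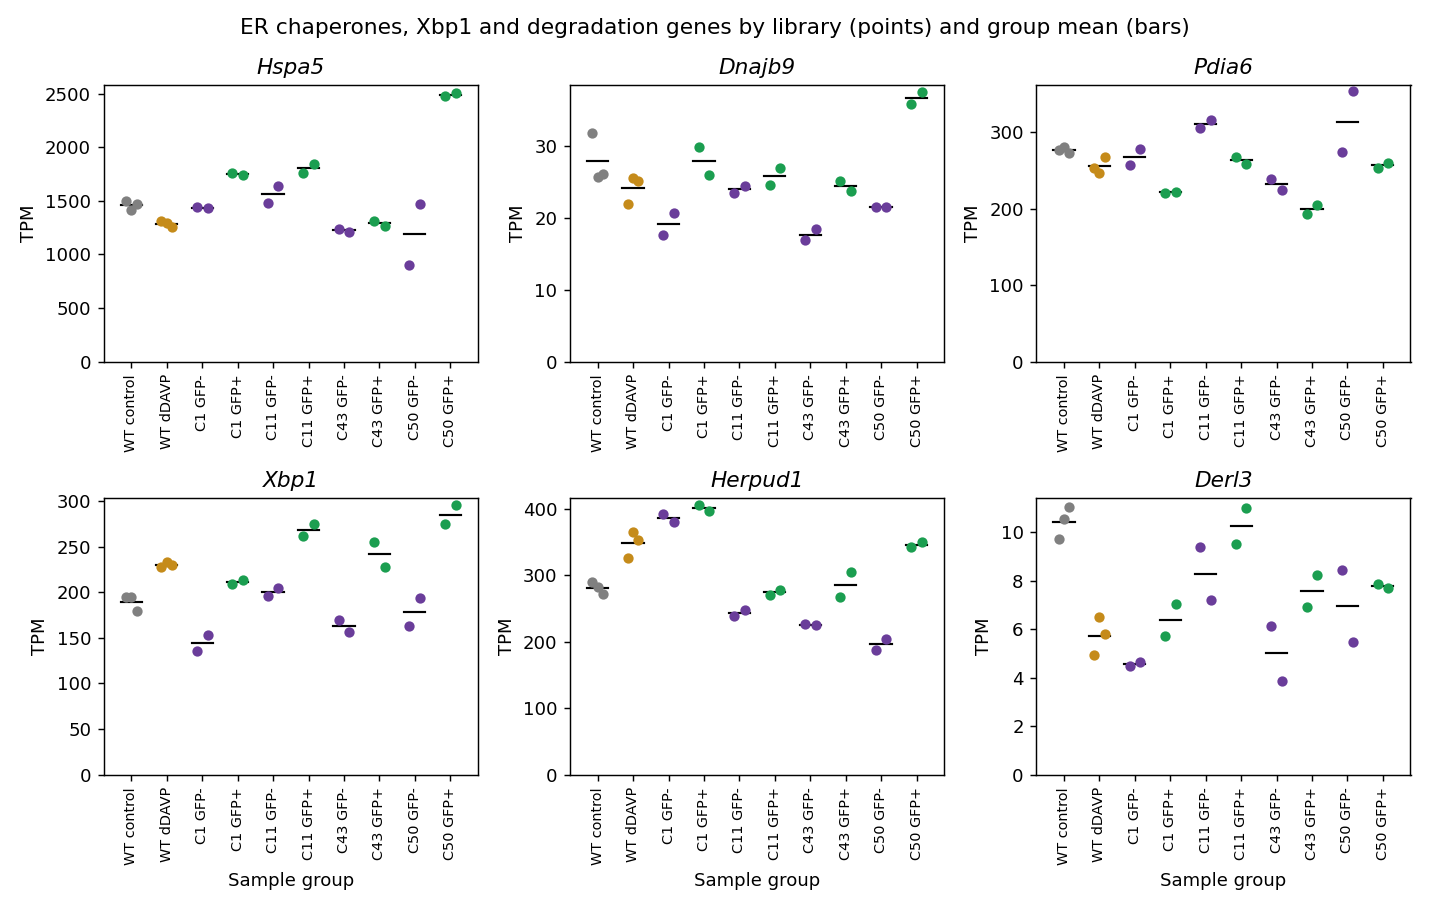
TPM of the chaperones Hspa5 and Dnajb9, the disulfide isomerase Pdia6, the factor Xbp1 and the degradation genes Herpud1 and Derl3 in the 22 libraries (points) with group means (bars), coloured as WT control (grey), WT dDAVP (ochre), GFP- (purple) and GFP+ (green). Xbp1 is higher in the GFP+ fraction of every clone and in treated WT cells, Pdia6 is lower in the GFP+ fraction of every clone, and the GFP+ libraries of C50 hold the 2 highest values of Hspa5 and Dnajb9.

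Set beside the promoter elements, both directions occurred among genes with an ERSE or ERSE-II. Of the chaperones whose promoters hold an ERSE, Hspa5 and Canx were higher in GFP+ cells, Pdia6 and Creld2 were lower, and Hsp90b1, Calr and Dnajc3 were not called. Trib3, Asns, Chac1 and Nupr1, which hold the C/EBP-ATF element, were all lower, while Herpud1, which holds it beside an ERSE-II, was higher. Dnajb11, the other gene with an ERSE-II, was lower.

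Of the 9 genes of degradation and translocation, 3 were called, or 33.3% where 35.3% of all genes were called. Herpud1 was 392 and 381 TPM in GFP- and 406 and 397 TPM in GFP+ cells of C1, 238 and 248 TPM against 271 and 279 TPM in C11, 226 and 225 TPM against 267 and 305 TPM in C43 and 188 and 205 TPM against 342 and 349.8 TPM in C50. GFP+ values were the higher ones in every clone, but C1 lay high in both fractions, so the fractions overlapped over the clones (log2 change 0.35, standard error 0.087, adjusted p = 0.00629). Derl3, which was lower with dDAVP in WT cells, was higher in GFP+ cells, at 3.88, 5.79 and 9.37 TPM against 5.72, 7.78 and 11.0 TPM with wide overlap (log2 change 0.35, standard error 0.11, adjusted p = 0.0277). Derl1, of the same channel family, was lower, at 67.1, 89.4 and 97.9 TPM against 68.2, 69.7 and 74.0 TPM (log2 change -0.31, standard error 0.063, adjusted p = 0.00153). Its ranges overlapped only through GFP- replicate 1 of C50. The log2 changes of the ubiquitin ligase Syvn1 (HRD1) and its partner Sel1l were 0.19 and 0.07, those of the mannosidase-like Edem1 and of Derl2 -0.09 and -0.04, and those of the translocon genes Sec61b and Ssr1 -0.21 and -0.04, none called.

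Within the 8 clone libraries with fewer genes above 0, limma called 0 of the 35 genes (9 had an unadjusted p below 0.05) and 1.96% of all genes. In the 8 with more genes it called 7, or fewer in proportion than the 29.9% of all genes. Either set holds both fractions of only 3 clones. The log2 difference of Trib3 was -2.15 (adjusted p = 0.0816) and -2.66 (adjusted p = 0.00202) in the libraries with fewer and more genes, that of Asns -0.64 (adjusted p = 0.0715) and -0.97 (adjusted p = 0.00273), and that of Nupr1 -0.86 (adjusted p = 0.0536) and -0.86 (adjusted p = 0.004). For Xbp1 it was 0.60 (adjusted p = 0.0683) and 0.52 (adjusted p = 0.0057), and for Hspa5 0.57 (adjusted p = 0.272) and 0.33 (adjusted p = 0.123). The p-values of the 16 called genes take the 2 libraries of a clone and fraction as separate units. With the mean of each clone and fraction as the unit, 4 of the 35 and 18.3% of all genes were called. Of the 4, 1 was higher and 3 were lower, all among the 16, and the rest of the 16 were then not called. Without GFP- replicate 1 of C50, 20 were called, 8 higher and 12 lower, beside 46% of all genes, with all 16 among them, and the added genes were Calr (higher), Pdia3, Pdia4 and Atf6 (lower). In GFP+ cells 7 of 8 cycling-cell markers were lower, with sums of 1471 to 1870 TPM in GFP- and 767 to 1563 TPM in GFP+ libraries. Of 12 immediate early genes 6 were higher and 1, Atf3, was lower. Of the 9 tested principal-cell markers 6 were higher and 1 was lower. Other cell types had few tested markers. Higher were 1 of 3 intercalated-cell, 1 of 1 proximal tubule and 1 of 2 podocyte markers, and 1 of 2 immune markers was lower. The part of these lists in the results was not tested.

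The size of the fraction difference differed between clones for 3 of the 35 genes by a test of the interaction, where 0.869% of all genes were called. The log2 differences of Trib3 were -2.10, -2.88, -3.43 and -1.29 in C1, C11, C43 and C50 (moderated F-test, adjusted p = 0.0496). The differences of Ppp1r15a were 0.35, 0.25, 0.23 and 1.02 (adjusted p = 0.0474) and those of Herpud1 0.05, 0.18, 0.34 and 0.82 (adjusted p = 0.0381), in the same order. C50 had the smallest difference in Trib3 and the largest in Ppp1r15a and Herpud1. The 3 calls held without GFP- replicate 1 of C50, when the test called 5 of the 35 genes (adding Hspa5 and Ddit3) and 2.49% of all genes. They also held without GFP- replicate 2 of C50, which leaves the library that stood apart as the only GFP- library of C50. The test then called 15 and 38.6% of all genes. Without GFP+ replicate 1 or 2 of C43 it called 2 or 1 of the 35 (1.07% or 1.02% of all genes). Without any 1 of the remaining libraries it called 0 of the 35 (0.319% to 0.708% of all genes). Within single clones limma called 5 of the 35 genes in C1, 2 higher and 3 lower, where 7.22% of all genes were called (2.31% higher, 4.91% lower). It called 4 in C11, 1 higher and 3 lower, where 7.94% of all genes were called (2.23% higher, 5.7% lower). In C43 it called 9, 3 higher and 6 lower, against 16.3% of all genes (4.29% higher, 12% lower), and in C50 12, 6 in each direction, against 26.6% (12.8% higher, 13.8% lower). Without GFP- replicate 1 of C50, which enters the shared estimate of spread, the counts were 9 in C1 (15.9% of all genes), 11 in C11 (17.7%) and 14 in C43 (29.6%), and the counts without GFP- replicate 2 of C50 were the same. Without 1 of its own libraries, the count was as low as 2 in C1, 1 in C11 and 4 in C43. Without GFP- replicate 1 the count in C50 was 13, with 9 of the 12 among them, beside 23.7% of all genes. Canx, Manf and Sec61b were then not called and Pdia6, Dnajb11, Derl1 and Ddit3 were added. Without GFP- replicate 2 it was 19 (13 higher, 6 lower), beside 52.2% of all genes. A limma fit to the 4 libraries of C50 alone called 0 of the 35, with 10 at an unadjusted p under 0.05, and 0.169% of all genes. In C50 the immediate early list moved as well, with 8 of 12 genes higher and 1 lower in GFP+ cells, and its part in these results was not tested.

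The clones also differed from each other whatever the fraction. By a moderated F-test with the fraction as a covariate 13 of the 35 genes were called, where 28% of all genes were. They were Hsp90b1, Pdia6, Dnajb11, Manf, Xbp1, Ddit3, Asns, Chac1, Ppp1r15a, Nupr1, Herpud1, Syvn1 and Derl3, and without GFP- replicate 1 of C50 the count was 19, with 44.8% of all genes called. Without GFP- replicate 1 of C1 it was 8, with 23.7% of all genes called. Nupr1 differed widely, with a mean of 14.4 ± 0.382 TPM (SD, n = 2) in GFP+ cells of C50 and 133 ± 9.49 TPM (SD, n = 2) in those of C43. Ddit3 was low in both fractions of C1, at 194 and 199.8 TPM in GFP- and 199 and 188 TPM in GFP+ cells, where C50 had 379 and 245 TPM and 342 and 336 TPM. Manf, a secreted ER stress protein, was 227 and 188 TPM in GFP- and 180.3 and 195 TPM in GFP+ cells of C1, above the 124 and 133 TPM and 124 and 136 TPM of C11. Each clone is a single line, so a difference between clones is a difference between these lines.

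Against treated WT cells, the 4 clones, each as the mean of its 4 libraries, had 0 of the 35 genes called by limma, where 0.0606% of all genes were called, and 3 of the 35 had an unadjusted p under 0.05. Trib3 had the lowest adjusted p of the 35 (log2 change -1.17, standard error 0.17, adjusted p = 0.0812). Its GFP- libraries ranged from 46.5 to 212 TPM around the treated WT values of 130.4, 113 and 121 TPM, and its GFP+ libraries lay below them. With GFP+ fractions only, 2 of the 35 and 1.06% of all genes were called. Intercalated-cell markers, mainly Rhcg, summed to 84.0 to 124 TPM in WT and 4.74 to 15.3 TPM in clone libraries, and clone, reporter and sorting cannot be told apart.

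Other genes of the pathway, from lists also chosen with earlier results of these data known, were counted beside the 35. Between GFP fractions 28 of 37 other Atf4 pathway targets were called, 1 higher and 27 lower, or 75.7% where 35.3% of all genes were called, with a median log2 change of -0.54. Phgdh and Psph, enzymes of serine synthesis, were lower in GFP+ cells (mean and SD of 8 libraries per fraction). Phgdh was 689 ± 36.3 TPM against 313 ± 64.8 TPM (log2 change -1.16, adjusted p = 9.16e-08) and Psph 31.0 ± 3.94 TPM against 9.92 ± 2.19 TPM (log2 change -1.58, adjusted p = 1.97e-06). Fgf21, a secreted metabolic hormone, was 10.8 ± 2.74 TPM (SD, n = 8) in GFP- and 0.686 ± 0.527 TPM (SD, n = 8) in GFP+ libraries (log2(TPM + 1) change -2.84, adjusted p = 4.90e-08). Its GFP+ mean is below the filter of 1 TPM, so it was tested only through its level in GFP- cells. It is counted among the 27 lower genes, and its p-value adds no support of its own. Ddit4, an inhibitor of mTORC1, changed by -1.76 (adjusted p = 0.000308), and the 1 higher gene was Jdp2, a bZIP repressor (0.23, adjusted p = 0.0304). In single clones 11 of 37 were lower in C1 (1 higher), 13 in C11 (0 higher), 21 in C43 (0 higher) and 9 in C50 (3 higher). Of all genes 4.91%, 5.7%, 12% and 13.8% were lower in these clones and 2.31%, 2.23%, 4.29% and 12.8% higher.

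**Figure D5:**
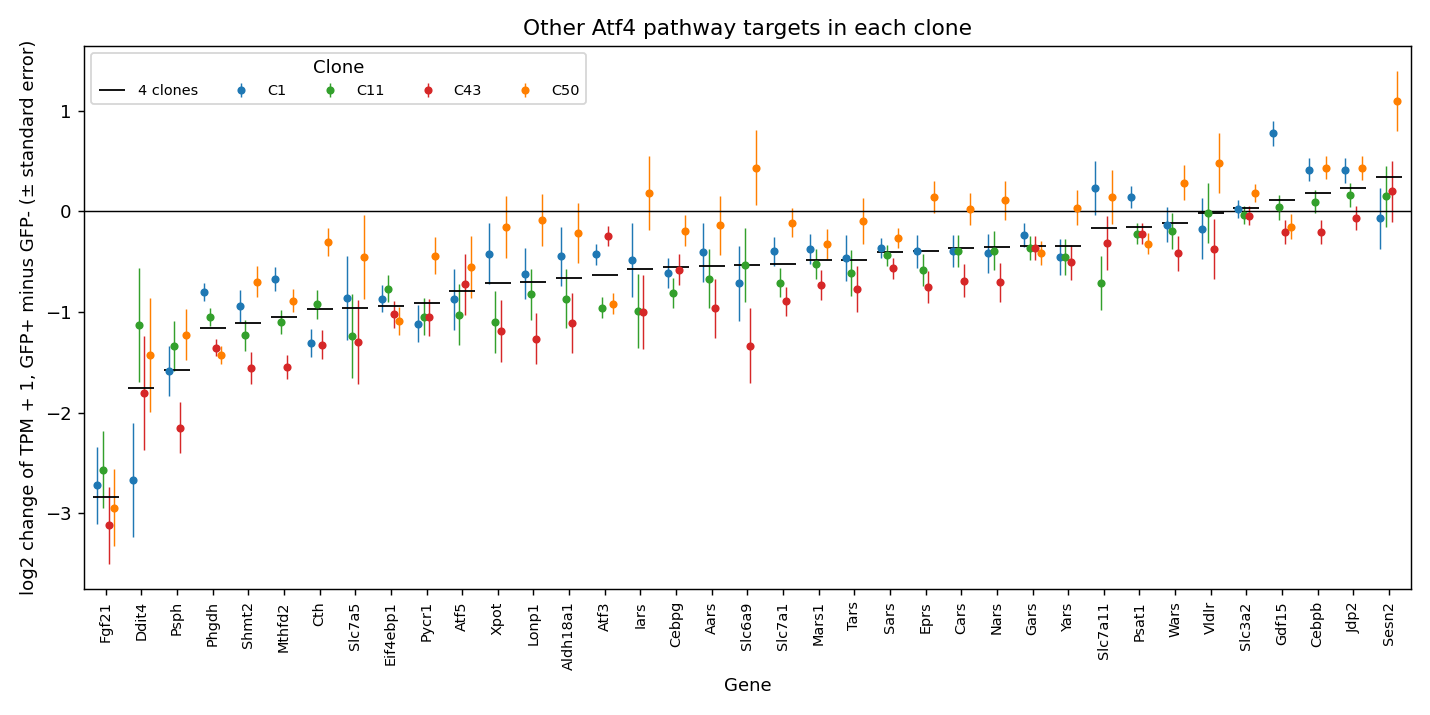
Log2(TPM + 1) change between GFP+ and GFP- cells, with its standard error, of the 37 tested other Atf4 pathway targets in each clone (coloured points) and over the 4 clones (black bars), ordered by the latter. Most bars lie below 0, and C50 (orange), shown with its GFP- replicate 1 included, is often the clone nearest to or above 0. Fgf21, tested only through its level in GFP- cells, lies between -3.12 and -2.57 in the 4 clones.

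Most calls over all genes were lower too, since 34.2% of them were higher in the deposited values, and other scalings brought that share to 51% and 50.5%. The counts of the other lists are to be read against this. Of 25 other genes of ER folding and glycoprotein quality control 10 were called, all lower in GFP+ cells. That is 40% called and 40% lower, against 35.3% and 23.2% of all genes. Among them were the glucosidase Mogs (-0.60, adjusted p = 0.00541) and the folding helper Erp29 (-0.51, adjusted p = 6.12e-05). In other degradation and translocation genes 3 of 37 were higher and 8 lower (29.7% called and 21.6% lower, against 35.3% and 23.2% of all genes), led by the translocon subunit Ssr4 (0.37) and by Ssr2 (-0.33). In other sensors, proteases and factors 3 of 20 were higher, namely Txnip, an inhibitor of thioredoxin (0.88), Creb3l2 (0.83) and Creb3 (0.22), and 8 were lower, with the eIF2B subunits Eif2b4 (-0.52), Eif2b2 (-0.44) and Eif2b5 (-0.37) among them (55% called). A comparison list of the cytosolic heat shock response had 2 of 18 higher and 11 lower (72.2% called), with Dnajb1 at 0.77 and Hspb1 at -1.39. All are log2 changes with an adjusted p under 0.05.

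With dDAVP in WT cells 6 of 38 other Atf4 pathway targets were called, or 15.8% where 8.88% of all genes were. Higher were 5, or 13.2% against 2.37% of all genes. They included Sesn2, a stress-induced regulator of mTORC1 (0.84), Cebpb (0.45), Gdf15, a secreted stress cytokine (0.33), and the serine synthesis enzyme Psat1 (0.33). Lower was Atf3 (-0.41), which is also an immediate early gene. Sesn2 was 36.7 ± 2.42 TPM without and 66.9 ± 11.1 TPM with dDAVP (SD, n = 3 each, limma adjusted p = 0.0108). In the other lists dDAVP had 3 of 26 folding genes lower (Dnajc10, Fkbp9 and Mogs), 1 of 37 degradation and translocation genes lower (Sec61a2), 1 of 20 sensors and factors lower (Bcl2l11) and 1 of 18 heat shock genes lower (Dnajb1). In that order these are 11.5%, 2.7%, 5% and 5.56% of the lists, where 6.51% of all genes were lower.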

How the data were processed

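RNA-seq libraries of sorted and unsorted mpkCCD cells were analysed from 1 table of TPM values that the authors deposited. STAR and RSEM are named in the submitters' processing notes, without versions, and genome build, annotation and strand setting are not given in the sources used here. TPM keep no depth, so no count test, interval or floor on reads was used, and overlapping or antisense genes cannot be told apart. The 55415 lines were summed per symbol to 54514 entries, which joined 2 lines for Ddit3.

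Genes with a mean of at least 1 TPM over the libraries compared were tested with limma 3.58.1 (R 4.3.3) on log2(TPM + 1) with a mean-variance trend, Benjamini-Hochberg adjustment over all genes and a threshold of 0.05, two-sided. All 35 genes passed the filter in every comparison. Clone was a covariate between GFP fractions, single clones shared 1 estimate of spread, and clones were compared with WT cells as 4 means. The code was tested on simulated data.

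All 35 genes could be named. Values were given in most detail for the called genes of each role with the largest changes (up to 4 per direction) and for Hspa5, Xbp1, Atf4, Ddit3, Asns and Trib3 in any case. From other lists up to 4 called genes per direction with a mean of at least 5 TPM were named. The members, lists and marker genes were chosen with earlier results of these data known. Alternatives covered the pseudocount, the filter, scaling, trend, a replicate block, the number of genes detected and each library left out.

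Same-numbered replicates did not deviate together (correlations of -0.208 to -0.0254 in WT pairs and 0.0151 to 0.203 in clones), so they were not treated as pairs. No 2 libraries of a group held identical values. Promoter sequences came from RefSeq (GRCm38.p6).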

Additional observations from a re-analysis of the deposited data

Results flagged for a closer look

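The GFP effect on 3 of the 35 genes differed between the 4 clones by a moderated F-test over 16 libraries in limma. The adjusted p was 0.0496 for Trib3, 0.0474 for Ppp1r15a and 0.0381 for Herpud1. For Trib3 the direction was the same in all 4 clones and C50 had the smallest difference. For Ppp1r15a and Herpud1 C50 had the largest difference. All 3 values lie close to the threshold, and none of the 3 genes was called when any 1 library of C1, C11, the GFP- fraction of C43 or the GFP+ fraction of C50 was left out.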

How the results depend on the processing

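Of 42 other settings, 22 left out 1 library each, and no called gene of the 35 changed direction in any of them. Counts or shares of all genes called stand in parentheses. Leaving out each library in turn gave 1 to 3 genes of the 35 called for dDAVP (314 to 2038 of all genes), 14 to 20 for GFP fractions (4170 to 6043), 2 to 9 in C1 (377 to 2094), 1 to 11 in C11 (318 to 2331), 4 to 14 in C43 (858 to 3891), 8 to 19 in C50 (1793 to 6820), 0 to 15 for the interaction (42 to 5038), 8 to 19 for clones (2744 to 5889) and 0 to 1 for clones against WT cells (2 to 24). For dDAVP the count was 1 with all genes above 0 (1.16%), 2 with quantile normalization (6%), 2 without the trend (5.12%), 10 with the number of genes detected as a covariate (20%) and 0 in libraries with more genes detected (0.728%). With the replicate block it was 0 for dDAVP (0.904%), 2 in C11 (4.3%), 5 in C43 (12.1%), 0 for the interaction (0.0839%) and 15 for GFP fractions (32.5%), although the numbers do not pair the libraries. With all genes above 0 it was 8 for clones (6.58%), 5 in C43 (3.34%) and 0 for the interaction (0.193%), which gave 1 after median-ratio scaling (1.21%) and 0 without the trend (0.61%). For GFP fractions it was 7 in libraries with more (29.9%) and 0 in those with fewer genes detected (1.96%), and 4 with clone means (18.3%). C50 alone gave 0 (0.169%). Against WT cells GFP+ fractions gave 2 (1.06%), and leaving out all of C1 gave 1 (0.248%). Counts over all genes moved from 1198 to 756 for dDAVP with median-ratio scaling. Taking Ddit3 from 1 line, an alternative chosen after seeing the data, changed no count of the 35. Depth is unknown, and 2 libraries per clone and fraction limit the single-clone results.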
